A study of Mus musculus with 9 samples.

Results

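Kinesins are motor proteins that use ATP to move along microtubules or to take them apart, and in the testis they serve the mitotic and meiotic spindles, the transport of vesicles and organelles, and the manchette and flagellum of the developing sperm. The kinesin family was taken here as the protein-coding mouse genes whose symbol consists of Kif or Kifc, a number and at most 1 letter from a to c, and 42 of the 32035 genes in the data were members. By their best known roles they were put into 15 division kinesins (spindle assembly, chromosome movement and cytokinesis), 14 transport kinesins (cargo in the cytoplasm), 9 cilium and spermatid kinesins and 4 others (*Kif12*, *Kif26a*, *Kif26b* and *Kif28*). All 42 are listed in each of the 9 libraries, with 171 transcripts in all.

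Whole testes of 15-week-old C57Bl6/N males were measured by RNAseq of poly(A) RNA, with 3 WT mice, 3 *Kpna6*ΔIBB/ΔIBB mice and 3 *Kpna6*-/- mice. *Kpna6* encodes importin α7, an adaptor that carries proteins into the nucleus. In the *Kpna6*ΔIBB/ΔIBB line, exon 2 is replaced by a resistance cassette and the protein made is shortened and lacks the importin β binding domain, whereas in the *Kpna6*-/- line a gene trap in intron 1 spares a testis-specific first exon, so that germ cells still make the full-length protein and Sertoli cells do not. Both lines were backcrossed to C57Bl6/N for 10 generations, and nothing in the labels ties a mutant to a WT littermate. On chromosome 4, which holds *Kpna6*, *Kif17* lies 8.58 Mb, *Kif2c* 12.46 Mb and *Kif1b* 19.5 Mb from it. *Kif12* and *Kif24* lie 66.47 and 88.18 Mb away. For these genes, an effect of DNA linked to the targeted gene cannot be told apart from that of the mutation and was not tested. Estimated counts on genes ranged from 24859751 to 31484692 per library.

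*Kpna6* itself had 98.3, 163 and 176 TPM in the WT libraries, 32.0, 34.2 and 34.8 in those of *Kpna6*ΔIBB/ΔIBB and 134, 137 and 141 in those of *Kpna6*-/-, where TPM is the relative number of transcripts, a level corrected for transcript length. All *Kpna6*ΔIBB/ΔIBB values were below all others, whereas the *Kpna6*-/- values lay within the WT range, which includes a first WT testis with a low value. In whole testis, fewer cells of a type and less RNA per cell cannot be told apart. All 10 round spermatid and all 10 elongating spermatid markers were lower in *Kpna6*ΔIBB/ΔIBB than in WT testes, and all 12 Sertoli cell markers were higher. Each of these passed the test described below, as did 36.6% of all 18797 genes tested (17.7% higher and 18.9% lower). The paper counted fewer Sertoli cells in adult testes of both mutant lines. The summed level of the round spermatid markers ranged from 2217 to 2405 TPM in WT and from 1813 to 1991 TPM in *Kpna6*ΔIBB/ΔIBB, that of the elongating spermatid markers from 69730 to 79930 and from 58040 to 66300 TPM, and that of the Sertoli cell markers from 1219 to 1378 and from 2069 to 2534 TPM. In *Kpna6*-/- testes these sums ranged from 2127 to 2261, from 78190 to 79770 and from 1511 to 1636 TPM. Of these markers 0, 0 and 3 passed the test against WT, as did 1.6% of all 18681 genes tested. Other marker sums were also higher in *Kpna6*ΔIBB/ΔIBB than in WT without overlap. Spermatogonium markers summed to 119.8 to 135.6 TPM in WT and 156.8 to 180.4 in *Kpna6*ΔIBB/ΔIBB. Macrophage markers had 41.8 to 52.0 and 62.0 to 70.2 TPM, and peritubular and endothelial markers 66.8 to 73.1 and 91.5 to 102.9 TPM. The sums of leptotene to zygotene, pachytene and Leydig cell markers overlapped between these groups. The third *Kpna6*ΔIBB/ΔIBB library stood apart with 91.2 TPM of epididymal markers, against 4.09 to 8.85 TPM in the other 8 libraries, with *Lcn5* at 0 in all 9. Most of it was *Crisp1* at 77.0 TPM, with *Adam7* at 6.99 TPM, against at most 4.23 and 0.169 TPM in the other 8. *Rnase10*, *Cst11*, *Lcn8* and *Lcn9* lay within the range of the other libraries, and *Defb48* had 1.48 TPM against at most 1.44. The part of these differences in the kinesin values was not tested.

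The kinesin transcripts of the WT testis were dominated by 6 genes. *Kif2b* was the most abundant at 419.9 ± 35.8 TPM (SD, n = 3), followed by its paralog *Kif2c* at 289 ± 8.51 TPM. Both encode kinesin-13 proteins, which do not walk along microtubules but remove tubulin from their ends. *Kif17*, a kinesin-2 motor of spermatids and cilia, had 189 ± 5.39 TPM, and *Kif9*, a component of the sperm flagellum, had 160.4 ± 3.97 TPM. *Kif2a*, the third kinesin-13 gene, followed with 133 ± 3.32 TPM and *Kif27*, a relative of the ciliary kinesin *Kif7*, with 124 ± 2.93 TPM. Together these 6 genes made up 70.6% ± 0.62 (SD, n = 3) of all kinesin TPM in the WT libraries, 66.6% ± 0.53 in those of *Kpna6*ΔIBB/ΔIBB and 70.0% ± 0.56 in those of *Kpna6*-/-. The other members were lower by length-corrected level, with 19 between 10 and 100 TPM, 13 between 1 and 10 TPM and 4 below 1 TPM in WT. The least abundant was *Kif12*, at 0 in 5 of the 9 libraries and at most at 0.237 TPM in any of them, the highest value being that of the third *Kpna6*ΔIBB/ΔIBB library.

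**Figure D1:**
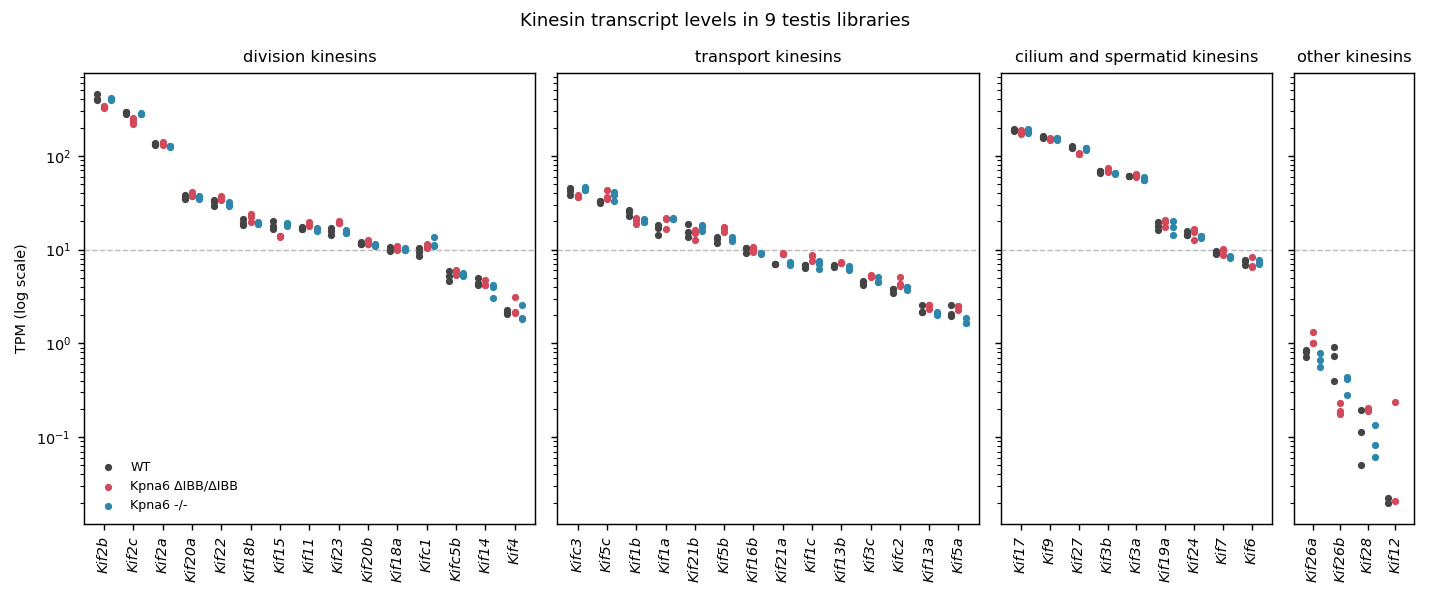
TPM of the 42 kinesin genes on a log axis, 1 point per library, in black for WT, red for Kpna6ΔIBB/ΔIBB and blue for Kpna6-/-; values of 0 (Kif12) cannot be drawn, and the dashed line marks 10 TPM. Kif2b, Kif2c, Kif17, Kif9, Kif2a and Kif27 lie above 100 TPM, and the 4 other kinesins lie near or below 1 TPM.

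Summed over the family, the level was 1865 ± 36.1 TPM for WT, 1718 ± 19.2 TPM for *Kpna6*ΔIBB/ΔIBB and 1818 ± 4.36 TPM for *Kpna6*-/- (SD, n = 3 each). The division kinesins summed to 1024 ± 26.8, 902 ± 15.4 and 995 ± 12.1 TPM, and the cilium and spermatid kinesins to 653 ± 2.36, 618 ± 11.8 and 627 ± 13.7 TPM, in the same order. The transport kinesins summed to 188 ± 7.64, 196 ± 7.49 and 196 ± 8.52 TPM. The sum of the division kinesins was thus lower in all 3 *Kpna6*ΔIBB/ΔIBB libraries than in any other library, whereas the sums of the transport kinesins overlapped among all groups. Most of the division sum was *Kif2b* and *Kif2c*, with means of 419.9 and 289.1 TPM in WT and 335.6 and 236.9 TPM in *Kpna6*ΔIBB/ΔIBB. By log2(TPM + 1), 11 of the 15 division kinesins were higher than in WT and 4 lower. Their median change was 0.09, against 0.11 over all genes.

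For tests between groups the gene counts were used after TMM scaling, which sets the bulk of genes equal between libraries, and values by sample are given as normalised CPM (counts set against the scaled library size), which compare libraries and not genes. Of 41 kinesins tested between *Kpna6*ΔIBB/ΔIBB and WT testes, 17 passed at an adjusted P-value below 0.05 (edgeR's quasi-likelihood test, Benjamini-Hochberg adjustment over 18797 genes), 4 of them higher and 13 lower in the mutant. Among all genes tested, 36.6% passed, 17.7% higher and 18.9% lower, so that the share of kinesins that passed, 41.5%, was near this background. The median log2 fold change was -0.05 over the kinesins and 0.01 over all genes. Of the 41, 22 had groups without overlap, against 50.0% of all genes. Without the third *Kpna6*ΔIBB/ΔIBB library 16 passed, 4 higher and 12 lower.

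With scaling by library size alone, the median log2 fold change of all genes moved from 0.01 to 0.11 and the kinesin calls became 8 higher and 9 lower, while all genes went from 3327 higher and 3547 lower to 5416 higher and 2326 lower. On log2(TPM + 1) values tested with limma that median was 0.11 as well, with 3 kinesins higher and 5 lower, and 3873 genes higher and 1581 lower. Changes are therefore given below relative to the bulk of genes.

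**Figure D2:**
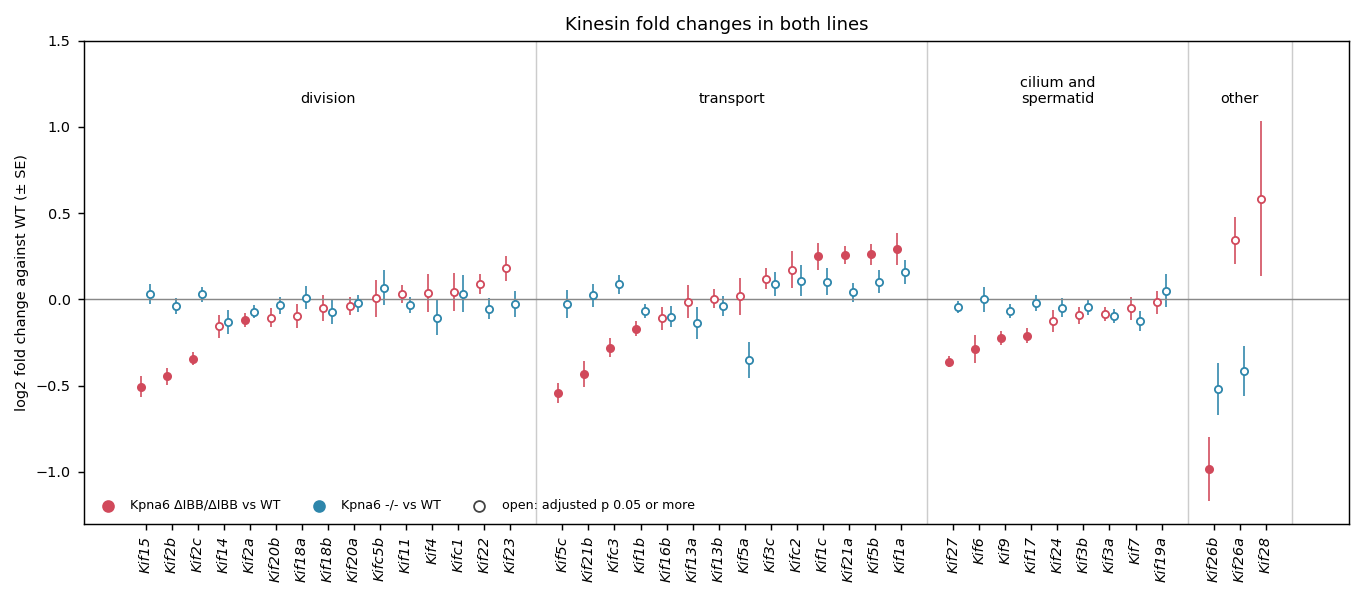
Log2 fold change (with its SE) of each tested kinesin against WT, in red for Kpna6ΔIBB/ΔIBB and in blue for Kpna6-/-, ordered within each role; filled points passed at an adjusted P-value below 0.05, and both lines are set against the same 3 WT libraries. Filled red points lie below 0 in all 4 role groups and above 0 in the transport group alone, and no blue point is filled.

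Of the 15 division kinesins, 4 fell and 0 rose in *Kpna6*ΔIBB/ΔIBB testes, with a median log2 fold change of -0.05. Those that passed were 26.7% of the group, against 36.6% of all genes, 18.9% being lower. *Kif2b* had 674, 656 and 742 CPM in the WT libraries, 504, 489 and 523 in those of *Kpna6*ΔIBB/ΔIBB and 655, 672 and 692 in those of *Kpna6*-/-. The log2 fold change against WT was -0.45 ± 0.05 (SE, adjusted P = 6.44e-05). All 3 *Kpna6*ΔIBB/ΔIBB values lay below the 6 others, and the *Kpna6*-/- values overlapped those of WT. *Kif2c*, known as MCAK, which corrects wrong attachments of chromosomes to the spindle, had 319.8, 333 and 318 CPM in the WT libraries, 255, 261 and 246 in those of *Kpna6*ΔIBB/ΔIBB and 346, 332 and 314 in those of *Kpna6*-/-. Its log2 fold change was -0.34 ± 0.04 (SE, adjusted P = 8.12e-05). Again the *Kpna6*ΔIBB/ΔIBB libraries were below all others without overlap. *Kif15*, a plus-end motor that helps to keep the spindle bipolar, had 64.1, 68.2 and 74.5 CPM in the WT libraries, 48.8, 47.9 and 48.4 in those of *Kpna6*ΔIBB/ΔIBB and 67.5, 72.6 and 71.6 in those of *Kpna6*-/-, and its log2 fold change of -0.51 ± 0.06 (SE, adjusted P = 0.000105) was the most negative of the division group. *Kif2a* was lower by a small amount, with 257, 269 and 256 CPM in the WT libraries, 233, 248 and 236 in those of *Kpna6*ΔIBB/ΔIBB and 244, 249 and 252 in those of *Kpna6*-/-. Its log2 fold change was -0.12 ± 0.04 (SE, adjusted P = 0.0383), and the call was lost when WT replicate 2 or 3 or *Kpna6*ΔIBB/ΔIBB replicate 1 or 3 was left out (adjusted P = 0.0558 to 0.135), with scaling by library size and on TPM values. The exons of *Kif2a* overlap those of *Dimt1* on the other strand over 1229 bases, and the libraries did not keep strand.

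The other division kinesins above 10 TPM did not pass. *Kif11*, the motor that separates the spindle poles, had 64.4, 63.3 and 65.0 CPM in the WT libraries, 65.6, 62.0 and 68.8 in those of *Kpna6*ΔIBB/ΔIBB and 60.4, 62.7 and 65.4 in those of *Kpna6*-/-, and the groups overlapped. *Kif20a* and *Kif20b*, which act in cytokinesis, had 97.3, 106 and 96.6 CPM in the WT libraries, 94.5, 102 and 95.0 in those of *Kpna6*ΔIBB/ΔIBB and 95.2, 102 and 98.3 in those of *Kpna6*-/- for the former, and 53.4, 52.1 and 49.4 CPM in the WT libraries, 50.8, 45.7 and 47.1 in those of *Kpna6*ΔIBB/ΔIBB and 51.6, 49.0 and 50.8 in those of *Kpna6*-/- for the latter. The exons of *Kif20a* overlap those of *Cdc23* on the other strand over 1271 bases. *Kif18a*, which dampens chromosome movement on the spindle, had 27.7, 26.7 and 24.8 CPM in the WT libraries, 24.7, 25.9 and 23.3 in those of *Kpna6*ΔIBB/ΔIBB and 27.5, 25.6 and 26.8 in those of *Kpna6*-/-, and *Kif18b*, a relative on astral microtubules, had 45.2, 53.4 and 43.9 CPM in the WT libraries, 43.5, 48.6 and 45.2 in those of *Kpna6*ΔIBB/ΔIBB and 43.5, 44.95 and 47.4 in those of *Kpna6*-/-. In both genes the 3 groups overlapped. *Kif22*, a chromokinesin that pushes chromosome arms, had 30.3, 30.6 and 27.7 CPM in the WT libraries, 31.4, 31.3 and 31.4 in those of *Kpna6*ΔIBB/ΔIBB and 27.8, 29.5 and 28.2 in those of *Kpna6*-/-, all *Kpna6*ΔIBB/ΔIBB values being the highest (adjusted P = 0.261). *Kif23*, a subunit of the centralspindlin complex of the midzone, had 41.7, 45.7 and 36.7 CPM in the WT libraries, 45.9, 47.9 and 46.5 in those of *Kpna6*ΔIBB/ΔIBB and 39.5, 39.5 and 43.2 in those of *Kpna6*-/-. These *Kpna6*ΔIBB/ΔIBB values also exceeded all WT values, with an adjusted P of 0.0765. *Kif14*, *Kif4*, *Kifc1* and *Kifc5b* were below 10 TPM, and their adjusted P-values ranged from 0.0930 to 0.975. Reads of *Kifc1* and *Kifc5b* are shared, since their transcripts are 96.8% identical over 2312 bases, and with both counted as 1 gene the same number of kinesins passed.

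Of the 14 transport kinesins, 4 rose and 4 fell in *Kpna6*ΔIBB/ΔIBB testes (57.1%, against 36.6% of all genes), and the median log2 fold change was 0.01. The 4 that were higher had low to moderate levels. *Kif5b*, the kinesin-1 heavy chain found in most cells, had 57.1, 53.7 and 49.6 CPM in the WT libraries, 67.8, 62.2 and 61.7 in those of *Kpna6*ΔIBB/ΔIBB and 56.2, 61.9 and 54.3 in those of *Kpna6*-/-, a log2 fold change of 0.26 ± 0.06 (SE, adjusted P = 0.0072). *Kif21a*, a kinesin-4 motor that restrains microtubule growth, had 35.2, 35.6 and 33.7 CPM in the WT libraries, 42.2, 40.9 and 41.4 in those of *Kpna6*ΔIBB/ΔIBB and 36.1, 36.7 and 34.7 in those of *Kpna6*-/-, with a log2 fold change of 0.26 ± 0.05 (SE, adjusted P = 0.00288). In both genes every *Kpna6*ΔIBB/ΔIBB library was above every WT library, and both calls held under each of the 18 alternatives tried. *Kif1c*, a kinesin-3 motor of vesicles, had 24.2, 21.8 and 25.2 CPM in the WT libraries, 30.4, 27.7 and 26.3 in those of *Kpna6*ΔIBB/ΔIBB and 25.8, 27.4 and 23.2 in those of *Kpna6*-/-. Its log2 fold change was 0.25 ± 0.08 (SE, adjusted P = 0.0265), and the call was lost without WT replicate 2 or *Kpna6*ΔIBB/ΔIBB replicate 1 or 2 (adjusted P = 0.0628 to 0.112). *Kif1a*, a kinesin-3 motor best known from axons, had 34.7, 35.1 and 31.8 CPM in the WT libraries, 45.03, 44.6 and 34.6 in those of *Kpna6*ΔIBB/ΔIBB and 41.6, 37.4 and 34.6 in those of *Kpna6*-/-. The third *Kpna6*ΔIBB/ΔIBB value lay inside the WT range, and the log2 fold change of 0.29 ± 0.09 (SE, adjusted P = 0.0309) was not called without any 1 of the WT libraries or without *Kpna6*ΔIBB/ΔIBB replicate 1 or 2 (adjusted P = 0.0524 to 0.122), whereas without *Kpna6*ΔIBB/ΔIBB replicate 3 it was 0.41 (adjusted P = 0.000717).

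The 4 transport kinesins that were lower included a kinesin-1 gene. *Kif5c* had 32.5, 32.8 and 33.7 CPM in the WT libraries, 23.1, 22.9 and 21.8 in those of *Kpna6*ΔIBB/ΔIBB and 33.5, 35.7 and 27.8 in those of *Kpna6*-/-, a log2 fold change of -0.54 ± 0.06 (SE, adjusted P = 5.84e-05), without overlap. *Kif21b*, the paralog of *Kif21a*, had 90.8, 100 and 112 CPM in the WT libraries, 78.5, 74.5 and 70.7 in those of *Kpna6*ΔIBB/ΔIBB and 107, 102 and 98.9 in those of *Kpna6*-/-, with a log2 fold change of -0.43 ± 0.07 (SE, adjusted P = 0.00102). On TPM values *Kif21b* did not pass under any of the 3 limma settings, with a log2 fold change as small as -0.10 (adjusted P up to 0.677), and neither did *Kif5c*, *Kifc3*, *Kif1a* or *Kif1c*. *Kifc3*, a minus-end directed motor of cell junctions and the Golgi, had 90.2, 98.5 and 103 CPM in the WT libraries, 78.9, 81.4 and 79.5 in those of *Kpna6*ΔIBB/ΔIBB and 109, 100.3 and 101 in those of *Kpna6*-/-, with a log2 fold change of -0.28 ± 0.05 (SE, adjusted P = 0.00245). *Kif1b*, a kinesin-3 motor of mitochondria and synaptic vesicles, had 108, 106 and 107 CPM in the WT libraries, 90.5, 95.7 and 98.3 in those of *Kpna6*ΔIBB/ΔIBB and 102, 100.4 and 104 in those of *Kpna6*-/-. Its log2 fold change was -0.17 ± 0.04 (SE, adjusted P = 0.0133), and the call was lost without *Kpna6*ΔIBB/ΔIBB replicate 1 (adjusted P = 0.061), with scaling by library size and with limma on TPM without a filter (adjusted P up to 0.225). *Kif16b*, an endosome motor, had 54.0, 50.4 and 45.2 CPM in the WT libraries, 44.2, 48.2 and 45.7 in those of *Kpna6*ΔIBB/ΔIBB and 46.4, 46.1 and 47.3 in those of *Kpna6*-/-, and the groups overlapped. The remaining members of the group were *Kif3c*, *Kif5a*, *Kif13a*, *Kif13b* and *Kifc2*, all below 10 TPM, with adjusted P-values from 0.148 to 0.953.

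All 4 cilium and spermatid kinesins that passed were lower in *Kpna6*ΔIBB/ΔIBB testes, and all 9 members had a log2 fold change below 0, with a median of -0.13. Those that passed were 44.4% of this group, against 36.6% of all genes, 18.9% being lower. With scaling by library size, 4 of the 9 were above 0 and 5 below, and on log2(TPM + 1) values the split was the same, but all 9 lay below the median of all genes under each of these scalings. *Kif27* had 435, 435 and 437 CPM in the WT libraries, 335, 339 and 340.4 in those of *Kpna6*ΔIBB/ΔIBB and 429.8, 410.1 and 429.6 in those of *Kpna6*-/-. The spread within a group was a small part of the distance between groups, and the log2 fold change was -0.36 ± 0.03 (SE, adjusted P = 2.25e-05). *Kif9* had 335, 356 and 333 CPM in the WT libraries, 283, 297 and 294 in those of *Kpna6*ΔIBB/ΔIBB and 327, 319 and 333 in those of *Kpna6*-/-, with a log2 fold change of -0.22 ± 0.04 (SE, adjusted P = 0.00141). *Kif17* had 491, 462 and 458 CPM in the WT libraries, 385, 404 and 426 in those of *Kpna6*ΔIBB/ΔIBB and 487, 436 and 468 in those of *Kpna6*-/-, with a log2 fold change of -0.21 ± 0.04 (SE, adjusted P = 0.00373). In all 3 genes the *Kpna6*ΔIBB/ΔIBB values lay below all others. *Kif6*, a kinesin of motile cilia, had 14.6, 15.0 and 16.0 CPM in the WT libraries, 12.7, 12.5 and 12.0 in those of *Kpna6*ΔIBB/ΔIBB and 15.3, 15.5 and 14.9 in those of *Kpna6*-/-. Its log2 fold change was -0.29 ± 0.08 (SE, adjusted P = 0.0156), and the call was lost without WT replicate 3 (adjusted P = 0.0574). With scaling by library size *Kif17* and *Kif6* did not pass, and on TPM values *Kif17*, *Kif9* and *Kif6* did not. *Kif27* passed under each alternative, with log2 fold changes from -0.37 to -0.24. Exons of *Kif27* overlap a gene on the other strand over 332 bases and those of *Kif6* another over 62 bases, and neither is among the genes in the data.

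The other members of this group did not pass. *Kif3a* and *Kif3b*, which form the motor of anterograde transport in the flagellum, had 111, 111 and 109.6 CPM in the WT libraries, 102, 105 and 106 in those of *Kpna6*ΔIBB/ΔIBB and 102, 108 and 102 in those of *Kpna6*-/- for *Kif3a*, and 312, 317 and 287 CPM in the WT libraries, 274, 298 and 284 in those of *Kpna6*ΔIBB/ΔIBB and 289, 295 and 303 in those of *Kpna6*-/- for *Kif3b*. The *Kpna6*ΔIBB/ΔIBB values of *Kif3a* were below those of WT and overlapped those of *Kpna6*-/-. *Kif19a*, which limits the length of cilia by taking apart their microtubules, had 25.4, 27.6 and 27.2 CPM in the WT libraries, 27.8, 25.4 and 25.9 in those of *Kpna6*ΔIBB/ΔIBB and 32.4, 27.0 and 23.7 in those of *Kpna6*-/-. *Kif24*, a regulator of centrioles, had 38.9, 42.9 and 40.4 CPM in the WT libraries, 39.7, 37.4 and 34.7 in those of *Kpna6*ΔIBB/ΔIBB and 40.1, 38.8 and 39.4 in those of *Kpna6*-/-, and the groups overlapped in both genes. *Kif7*, a regulator of Hedgehog signalling at the cilium tip, was below 10 TPM (adjusted P = 0.573).

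Of the 4 other kinesins, *Kif26b* was the only one to pass between *Kpna6*ΔIBB/ΔIBB and WT. It had 4.05, 3.92 and 3.42 CPM in the WT libraries, 1.80, 1.54 and 2.39 in those of *Kpna6*ΔIBB/ΔIBB and 2.90, 2.66 and 2.40 in those of *Kpna6*-/-, and the log2 fold change of -0.98 ± 0.19 (SE, adjusted P = 0.00204) was the most negative of the family. The level was 0.687 ± 0.266 TPM in WT, so that the counts behind it were few. Its exons overlap, over 909 bases, a gene on the other strand that is not among the genes in the data. *Kif26a*, its paralog, had 4.82, 3.99 and 4.44 CPM in the WT libraries, 6.47, 5.10 and 5.22 in those of *Kpna6*ΔIBB/ΔIBB and 3.73, 3.05 and 3.18 in those of *Kpna6*-/-, with all *Kpna6*ΔIBB/ΔIBB values above and all *Kpna6*-/- values below those of WT, and did not pass against WT in the *Kpna6*ΔIBB/ΔIBB line (adjusted P = 0.0739). *Kif28* had at most 0.205 TPM in any library and did not pass, and *Kif12* was not tested because its counts were too low.

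**Figure D3:**
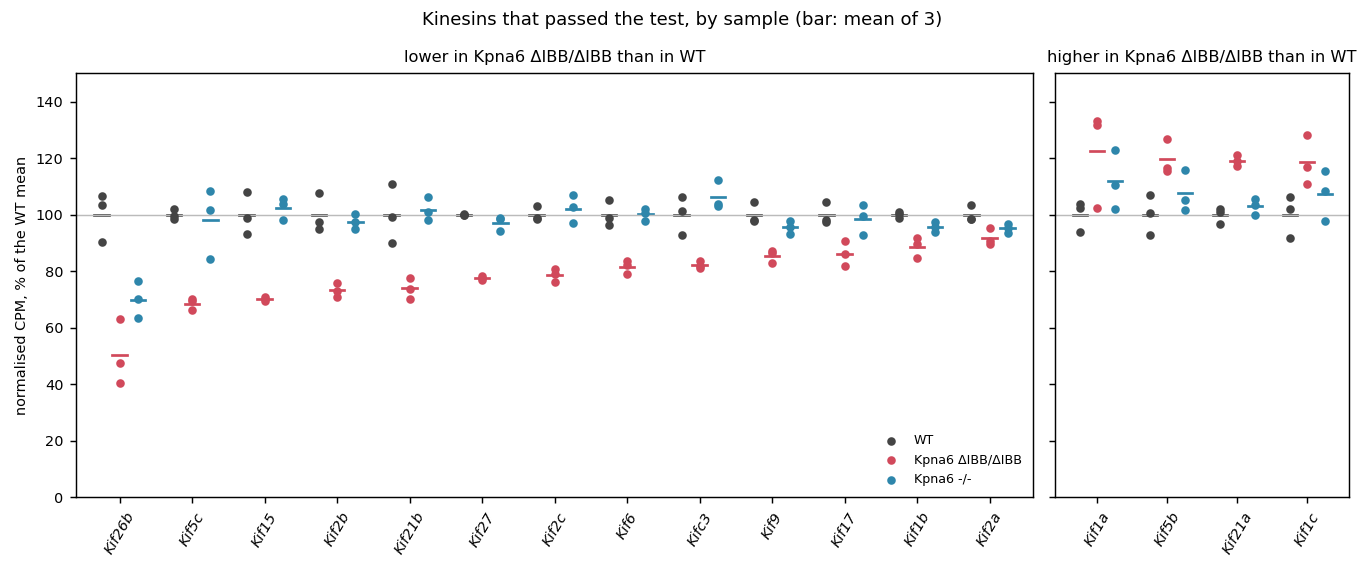
Normalised CPM of each kinesin that passed between Kpna6ΔIBB/ΔIBB and WT, as a percentage of the WT mean, with 1 point per library and a bar at the mean of 3; black is WT, red Kpna6ΔIBB/ΔIBB and blue Kpna6-/-. The red points lie below the black ones in all 13 genes of the left panel, and in the right panel they lie above the black ones apart from 1 red point of Kif1a.

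Between *Kpna6*-/- and WT testes 0 of 40 kinesins passed with edgeR and 0 with DESeq2, against 1.6% of all 18681 genes tested (0.889% higher and 0.712% lower). At an unadjusted P-value below 0.05 there were 5 (*Kif3a*, *Kif1a*, *Kif5a*, *Kif26a* and *Kif26b*), which is below the 14.9% of all genes at that level, and 10 had groups without overlap, against 20.0% of all genes. *Kif26b* was the member with the smallest unadjusted P (0.00497, adjusted P = 0.121), its *Kpna6*-/- values lying below all WT values. *Kif5a*, a kinesin-1 heavy chain best known from neurons, had 10.1, 10.6 and 12.6 CPM in the WT libraries, 11.6, 10.4 and 11.6 in those of *Kpna6*ΔIBB/ΔIBB and 8.33, 9.38 and 8.35 in those of *Kpna6*-/-, the *Kpna6*-/- values again being the lowest (adjusted P = 0.129 against WT). *Kif9*, *Kif2a*, *Kif27*, *Kif1b*, *Kif7*, *Kif14* and *Kif3a* also had all *Kpna6*-/- values below all WT values without passing.

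Set against *Kpna6*-/- testes instead of WT, which shares the *Kpna6*ΔIBB/ΔIBB libraries with the comparison above, 14 of 41 kinesins passed in *Kpna6*ΔIBB/ΔIBB testes, 4 higher and 10 lower, where 30.3% of the 18752 genes tested passed, 13.5% higher and 16.8% lower. The groups did not overlap in 18 of the 41, against 44.5% of all genes. The 10 lower ones were *Kif15* (log2 fold change -0.55 ± 0.05, SE, adjusted P = 6.82e-06), *Kif5c* (-0.52 ± 0.08, SE, adjusted P = 0.00065), *Kif21b* (-0.47 ± 0.05, SE, adjusted P = 2.88e-05), *Kif2b*, *Kif2c*, *Kifc3*, *Kif27*, *Kif6*, *Kif17* and *Kif9*, and the log2 fold changes of the last 7 ranged from -0.42 to -0.17. These 10 had also passed as lower against WT. *Kif21a* was higher, with a log2 fold change of 0.21 ± 0.05, SE, adjusted P = 0.00696, as it was against WT. The other 3 that were higher had not passed against WT. They were, by log2 fold change, *Kif23* (0.20 ± 0.05, SE, adjusted P = 0.0138), *Kif5a* (0.36 ± 0.09, SE, adjusted P = 0.0119) and *Kif26a* (0.75 ± 0.14, SE, adjusted P = 0.00178). The call of *Kif23* was lost without *Kpna6*ΔIBB/ΔIBB replicate 2 or without *Kpna6*-/- replicate 1 or 2 (adjusted P = 0.0563 to 0.0622). On TPM values with limma *Kif5c*, *Kif21b*, *Kif6*, *Kif17*, *Kif9* and *Kif26a* did not pass under any of the 3 settings (adjusted P up to 0.897), *Kif5a* did not under 1 of them (adjusted P = 0.0578), and with scaling by library size *Kif6*, *Kif17* and *Kif9* did not. Without *Kpna6*ΔIBB/ΔIBB replicate 3, 18 passed, with *Kif1a*, *Kif1b*, *Kif5b* and *Kif26b* added. With scaling by library size 15 passed, 8 higher and 7 lower, and the median of all genes was 0.10.

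Below the gene level, the files give an estimate for each annotated transcript. With 1 TPM or more as the mean of any group, 98 kinesin transcripts were found, of which 72 are annotated as protein coding, 12 as retained introns, 11 as processed transcripts and 3 as targets of nonsense-mediated decay. They came from 39 genes, 22 of them with 2 or more such transcripts. The share of its gene's TPM that a transcript held did not overlap between *Kpna6*ΔIBB/ΔIBB and WT in 29, and between *Kpna6*-/- and WT in 14, of the 85 that come from genes with 2 or more annotated transcripts. Over all genes these shares were 18.6% and 11.2% of 36052 such transcripts. A two-sided exact permutation test of 3 against 3 samples cannot give a P-value below 0.1, and each share described as not overlapping had that smallest value. Transcripts were named after their values had been seen, where the mean share differed by at least 10 percentage points without overlap, which 5 transcripts of 5 genes did between *Kpna6*ΔIBB/ΔIBB and WT and 2 transcripts between *Kpna6*-/- and WT, against 3.29% and 1.87% over all genes. Short transcripts that lie within longer ones share their reads, so that the split between them is an estimate.

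*Kif5c* had the largest shift. Its processed transcript *Kif5c-202* held 49.9, 55.7 and 40% in the WT libraries, 72.0, 78.6 and 71.4 in those of *Kpna6*ΔIBB/ΔIBB and 49.3, 44.6 and 47.5 in those of *Kpna6*-/- of the gene's TPM. In TPM it had 15.8, 18.6 and 13.2 TPM in the WT libraries, 30.8, 26.9 and 26.2 in those of *Kpna6*ΔIBB/ΔIBB and 18.9, 18.2 and 15.5 in those of *Kpna6*-/-, so that all *Kpna6*ΔIBB/ΔIBB values were above all others. The full coding transcript *Kif5c-201* (6856 bases) had 4.93, 5.02 and 5.23 TPM in the WT libraries, 3.67, 3.97 and 3.51 in those of *Kpna6*ΔIBB/ΔIBB and 4.87, 5.31 and 3.92 in those of *Kpna6*-/-, with the *Kpna6*ΔIBB/ΔIBB values below those of WT and overlapping those of *Kpna6*-/-. Since the 367 bases of *Kif5c-202* weigh more per read in TPM, the gene's summed TPM was higher in *Kpna6*ΔIBB/ΔIBB than in WT testes (38.0 ± 4.37 against 32.6 ± 0.87, SD, n = 3) while its normalised counts were lower, and on log2(TPM + 1) values the log2 fold change of the gene was 0.21 (limma, adjusted P = 0.102). The gene's estimated counts ranged from 603 to 1100 per library, and *Kif5c-202* held a smaller share of them than of the TPM. *Kif5c-202* starts inside the gene with a first exon of its own of 80 bases (GRCm38, plus strand, chr2:49744525-49744604), and its other 287 bases are part of *Kif5c-201*. The start of its sequence is shown because only these first bases set it apart from the coding transcript, and they are in capitals, with the first 40 of the shared bases in lower case.
Kif5c-202: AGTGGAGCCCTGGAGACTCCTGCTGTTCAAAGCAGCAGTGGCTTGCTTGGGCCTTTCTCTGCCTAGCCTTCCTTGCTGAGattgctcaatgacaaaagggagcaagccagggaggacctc

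Of the 8 annotated transcripts of *Kif2c*, 7 start in 2 regions 3895 bases apart, and the retained intron *Kif2c-203* was left out here because it starts in neither. The 3 transcripts from the inner one (*Kif2c-202*, *Kif2c-207* and *Kif2c-208*) summed to 254.6 ± 8.23 TPM for WT, 199 ± 15.6 for *Kpna6*ΔIBB/ΔIBB and 251 ± 7.52 for *Kpna6*-/- (SD, n = 3 each). The 4 from the outer one, with the coding *Kif2c-201*, summed to 20.7 ± 1.09, 24.7 ± 1.45 and 20.1 ± 1.56 TPM. The inner sum was lower in all 3 *Kpna6*ΔIBB/ΔIBB libraries than in all 6 others, in TPM as in normalised CPM (two-sided exact permutation test, P = 0.1 against WT and against *Kpna6*-/-, the smallest value possible). The outer sum was higher without overlap in TPM alone, since in normalised CPM it was 39.5, 44.8 and 41.1 in WT against 42.8, 47.4 and 47.6 in *Kpna6*ΔIBB/ΔIBB (P = 0.2 in the same exact test). Of the inner transcripts, the coding *Kif2c-202* had 147, 150.5 and 150.5 TPM in the WT libraries, 125, 125 and 115 in those of *Kpna6*ΔIBB/ΔIBB and 161, 156 and 143 in those of *Kpna6*-/-. The processed *Kif2c-207* had 21.9, 29.1 and 27.4 TPM in the WT libraries, 10.8, 12.2 and 10.2 in those of *Kpna6*ΔIBB/ΔIBB and 27.0, 26.8 and 24.3 in those of *Kpna6*-/-. In both transcripts the *Kpna6*ΔIBB/ΔIBB values lay below all others.

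The remaining 4 shifts concerned genes named above. The coding *Kifc3-202* held 67.8, 72.8 and 72.5% in the WT libraries, 61.5, 57.3 and 63.2 in those of *Kpna6*ΔIBB/ΔIBB and 67.4, 67.6 and 71.9 in those of *Kpna6*-/-. Its share was thus lower in *Kpna6*ΔIBB/ΔIBB testes, while that of *Kifc3-203* was 13.5% in WT and 18.9% in *Kpna6*ΔIBB/ΔIBB on average. *Kif1a-203* held 31.1, 22.2 and 27.6% in the WT libraries, 15.4, 19.2 and 10.6 in those of *Kpna6*ΔIBB/ΔIBB and 26.6, 24.3 and 18.9 in those of *Kpna6*-/-. In the same gene, *Kif1a-204* and *Kif1a-210*, which are annotated to end further downstream, were higher in share, at 15.9% and 11.4% in *Kpna6*ΔIBB/ΔIBB against 7.78% and 6.60% in WT. *Kif21b-205*, a short processed transcript, held 7.74, 9.98 and 13.6% in the WT libraries, 24.1, 25.4 and 16.9 in those of *Kpna6*ΔIBB/ΔIBB and 17.4, 19.6 and 15.7 in those of *Kpna6*-/-, so that its share was above that of WT in both mutant lines. Its level was 1.06, 1.52 and 2.52 TPM in WT, 3.92, 3.85 and 2.14 in *Kpna6*ΔIBB/ΔIBB and 3.16, 3.41 and 2.48 in *Kpna6*-/-. In TPM both mutant lines thus overlapped WT (two-sided exact permutation test, P = 0.2 for each). The estimated counts behind it were few, from 11.2 to 39.7 per library. *Kif1b-204*, a transcript with a retained intron, held 16.4, 6.49 and 20.9% in the WT libraries, 0, 5.93 and 0 in those of *Kpna6*ΔIBB/ΔIBB and 0, 5.81 and 0 in those of *Kpna6*-/-, and it was at 0 in 2 libraries of each mutant line. Its estimated counts were few as well, at 31.6, 11.8 and 38.8 in the WT libraries. *Kif1b-204* was also 1 of the 2 transcripts with such a shift between *Kpna6*-/- and WT, the other being the short coding *Kifc1-206*, with 9.56% of its gene in WT and 29.5% in *Kpna6*-/-.

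**Figure D4:**
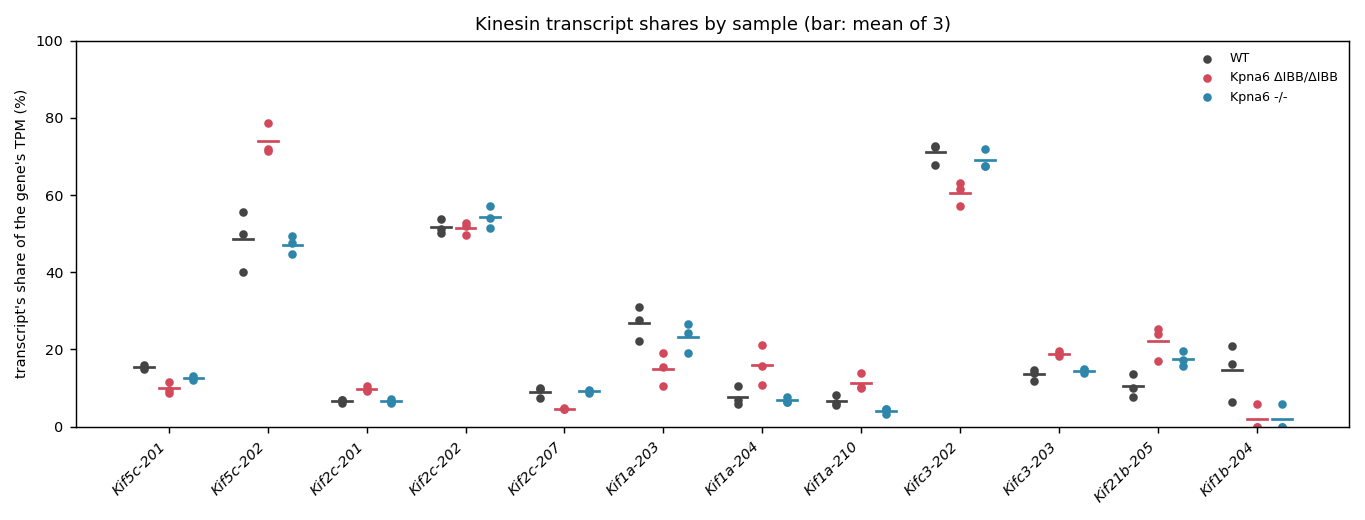
Share of its gene's TPM held by each of 12 kinesin transcripts, in percent, with 1 point per library and a bar at the mean of 3; black is WT, red Kpna6ΔIBB/ΔIBB and blue Kpna6-/-. Kif5c-202 lies between 40 and 55.7% in WT, between 71.4 and 78.6% in Kpna6ΔIBB/ΔIBB and between 44.6 and 49.3% in Kpna6-/-.

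Promoter windows of 300 bases, 250 before and 50 after the start, were available from RefSeq (GRCm38.p6) for 33 of the 42 members, and 32 of their 37 windows had an annotated GENCODE start within 50 bases. Both strands were searched for 4 short motifs. TTTGAA, the core of the CHR element of cell cycle genes, was found in 11 of 14 division kinesins (78.6%), in 1 of 8 transport kinesins and in 1 of 8 cilium and spermatid kinesins, against 20.2% of all 27025 genes with a window. CCAAT, the box read by NF-Y, was found in 9 of 14, 1 of 8 and 5 of 8, against 41.1% of all genes. GTTGCC, the short site of RFX factors, was found in 3 of 14, 3 of 8 and 4 of 8, against 14.1%. TGACGTCA, the full element read by CREB and CREM, was found in 3 of 33 kinesins (*Kif17*, *Kif5c* and *Kif18a*), against 2.03% of all genes. Of the 11 windowed kinesins that were lower in *Kpna6*ΔIBB/ΔIBB testes, 4 held TTTGAA, and of the 19 that did not pass, 9 did. A match of these letters is a description of the window and not a bound site.

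The 250 bases before the start are shown for 5 kinesins that were lower in *Kpna6*ΔIBB/ΔIBB testes, as the most abundant division kinesins (*Kif2b* and *Kif2c*), the division and transport kinesins with the most negative changes above 10 TPM (*Kif15* and *Kif5c*) and the most abundant cilium and spermatid kinesin (*Kif17*). Capitals mark matches of the 4 motifs on either strand. *Kif2b* lies on chromosome 11 (minus strand, chr11:91577556-91577805) and its window holds 1 CCAAT. The *Kif2c* window (chromosome 4, minus strand, chr4:117178773-117179022) precedes the inner start sites and holds 1 TTTGAA on the other strand. That of *Kif15* (plus strand, chr9:122950831-122951080) holds 2 such matches, 1 on each strand. The *Kif17* window (plus strand, chr4:138262001-138262250) holds 1 TGACGTCA and 1 GTTGCC, and that of *Kif5c* (plus strand, chr2:49619036-49619285) 1 TGACGTCA.
Kif2b: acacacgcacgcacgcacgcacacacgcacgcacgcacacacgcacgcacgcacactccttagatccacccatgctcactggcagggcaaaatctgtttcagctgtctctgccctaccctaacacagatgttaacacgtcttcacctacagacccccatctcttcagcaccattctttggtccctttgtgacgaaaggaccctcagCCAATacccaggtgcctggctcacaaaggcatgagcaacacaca
Kif2c: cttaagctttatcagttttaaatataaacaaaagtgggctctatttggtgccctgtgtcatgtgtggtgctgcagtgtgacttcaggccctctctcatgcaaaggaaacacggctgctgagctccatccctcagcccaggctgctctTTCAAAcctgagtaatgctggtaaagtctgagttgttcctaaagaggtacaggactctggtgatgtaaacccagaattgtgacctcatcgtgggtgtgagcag
Kif15: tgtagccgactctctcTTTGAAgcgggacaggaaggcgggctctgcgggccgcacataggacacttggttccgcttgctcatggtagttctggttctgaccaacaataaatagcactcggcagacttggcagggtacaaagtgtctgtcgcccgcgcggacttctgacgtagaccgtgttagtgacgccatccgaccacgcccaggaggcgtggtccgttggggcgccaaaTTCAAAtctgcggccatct
Kif17: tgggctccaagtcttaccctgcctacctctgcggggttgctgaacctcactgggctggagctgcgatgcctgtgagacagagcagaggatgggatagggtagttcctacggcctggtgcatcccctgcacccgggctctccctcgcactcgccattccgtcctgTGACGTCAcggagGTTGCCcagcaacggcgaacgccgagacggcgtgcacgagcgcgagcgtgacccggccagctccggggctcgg
Kif5c: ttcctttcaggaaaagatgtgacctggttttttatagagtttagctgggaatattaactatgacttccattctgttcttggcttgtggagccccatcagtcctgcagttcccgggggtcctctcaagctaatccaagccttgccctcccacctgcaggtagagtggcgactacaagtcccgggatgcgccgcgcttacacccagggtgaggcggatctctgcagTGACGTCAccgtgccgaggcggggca

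Genes that work with kinesins were read from 3 lists. Their values by sample are given in TPM, whereas the fold changes and tests rest on TMM-scaled counts, so that their sizes can differ. Of 17 cargo adaptors and accessory genes, 3 rose and 2 fell in *Kpna6*ΔIBB/ΔIBB relative to WT testes. *Kifap3*, the subunit that joins *Kif3a* and *Kif3b* to their cargo, had 107, 108 and 113 TPM in the WT libraries, 84.1, 85.4 and 87.3 in those of *Kpna6*ΔIBB/ΔIBB and 102, 104 and 105 in those of *Kpna6*-/-. *Fhl5*, which encodes ACT, a coactivator of CREM whose place in the spermatid is set by *Kif17*, had 265, 265 and 288 TPM in the WT libraries, 219, 202 and 212 in those of *Kpna6*ΔIBB/ΔIBB and 258, 284 and 268 in those of *Kpna6*-/-. Both were below all other libraries in the *Kpna6*ΔIBB/ΔIBB line, with log2 fold changes of -0.48 ± 0.04 (SE, adjusted P = 1.39e-05) and -0.49 ± 0.04 (SE, adjusted P = 2.72e-05). *Klc4*, a kinesin light chain, had 21.7, 20.8 and 22.0 TPM in the WT libraries, 26.7, 28.2 and 27.6 in those of *Kpna6*ΔIBB/ΔIBB and 24.6, 21.5 and 22.3 in those of *Kpna6*-/-, with a log2 fold change of 0.23 ± 0.05 (SE, adjusted P = 0.00498). *Ktn1*, which encodes kinectin, an anchor of kinesin on membranes, was at 5.67, 3.20 and 4.42 TPM in the WT libraries, 5.68, 5.83 and 6.01 in those of *Kpna6*ΔIBB/ΔIBB and 5.11, 4.38 and 4.12 in those of *Kpna6*-/-, with a log2 fold change of 0.46 ± 0.11 (SE, adjusted P = 0.00605).

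Of 18 partners of division kinesins in the spindle and midzone, 3 rose and 3 fell. *Tpx2*, which targets *Kif11* to the spindle, had 29.9, 27.6 and 25.2 TPM in the WT libraries, 33.6, 34.0 and 36.3 in those of *Kpna6*ΔIBB/ΔIBB and 27.4, 29.0 and 28.0 in those of *Kpna6*-/-, with a log2 fold change of 0.24 ± 0.05 (SE, adjusted P = 0.00259). *Numa1*, which anchors spindle poles, had 15.3, 15.5 and 16.9 TPM in the WT libraries, 21.4, 19.0 and 19.5 in those of *Kpna6*ΔIBB/ΔIBB and 17.2, 16.5 and 15.9 in those of *Kpna6*-/-, with a log2 fold change of 0.17 ± 0.05 (SE, adjusted P = 0.0147). These 2 genes were higher in each *Kpna6*ΔIBB/ΔIBB library. *Ckap5*, which speeds microtubule growth, had a log2 fold change of -0.19 ± 0.06 (SE, adjusted P = 0.0263), and *Aurkb*, a kinase of the chromosomal passenger complex that regulates *Kif2c*, had one of 0.30 ± 0.10 (SE, adjusted P = 0.0288). The TPM values of *Ckap5* overlapped between the groups. Its normalised CPM did not overlap between WT (136, 148 and 160) and *Kpna6*ΔIBB/ΔIBB (124, 129 and 133).

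Of 14 genes of cytoplasmic dynein and dynactin, the motor that runs opposite to most kinesins, 2 were higher and 4 lower. *Dync1h1*, the heavy chain, had 113, 121 and 113 TPM in the WT libraries, 105, 104 and 108 in those of *Kpna6*ΔIBB/ΔIBB and 116, 104 and 112 in those of *Kpna6*-/-, with a log2 fold change of -0.35 ± 0.05 (SE, adjusted P = 0.0002). In normalised CPM, on the scale of the test, its mean was 958 in WT and 751 in *Kpna6*ΔIBB/ΔIBB. *Dync2h1*, the heavy chain of retrograde transport in the flagellum, had a log2 fold change of -0.25 ± 0.05 (SE, adjusted P = 0.00282), and *Dynll1*, a light chain, had one of -0.18 ± 0.04 (SE, adjusted P = 0.00351). Between WT and *Kpna6*ΔIBB/ΔIBB the TPM values of *Dync2h1* overlapped and its normalised CPM did not, whereas *Dynll1* overlapped in neither. *Dync1i1*, an intermediate chain, was higher, at 5.43, 5.09 and 6.36 TPM in the WT libraries, 7.84, 8.53 and 8.15 in those of *Kpna6*ΔIBB/ΔIBB and 5.41, 5.78 and 5.32 in those of *Kpna6*-/-, with a log2 fold change of 0.44 ± 0.09 (SE, adjusted P = 0.00322). Read against the 36.6% of all genes that passed, the shares of these lists were 29.4%, 33.3% and 42.9%. Between *Kpna6*-/- and WT testes 0 genes of each list passed with edgeR, and 2 of each had an unadjusted P-value below 0.05. Over all genes these shares were 1.6% and 14.9%.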

How the data were processed

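Poly(A) RNA of whole testes was sequenced of 9 mice in 3 groups of 3 (WT and both *Kpna6* lines), grouped by the labels. The authors deposited estimated counts and TPM values per transcript, made with kallisto on mm10 per the labels. The transcript names matched GENCODE M21, by which 95301 of 96626 transcripts were summed into 32035 genes and 1325 were left out. Estimated counts were rounded to whole numbers. Genes were filtered with filterByExpr, scaled by TMM and tested pairwise with edgeR 4.0.16 (quasi-likelihood test, Benjamini-Hochberg adjustment, threshold 0.05) in R 4.3.3. The test gives no SE, so each SE printed is the absolute log2 fold change divided by the square root of its F statistic. In simulated counts with 2-fold changes in 200 of 18797 genes, edgeR recovered 157 of them, with 8 false calls. Smaller changes, or changes in a larger part of the genes, were not simulated. limma 3.58.1 on log2(TPM + 1) and DESeq2 1.42.0 were alternatives. Kallisto splits shared reads by estimation, and the libraries kept no strand. The study's own test (sleuth) was not run. Members named were those with a WT mean of at least 10 TPM and those that passed, and up to 4 partner genes per list by adjusted P-value. Members and lists were chosen with earlier results of these data known. Replicate numbers did not pair samples (correlations of deviations from -0.0558 to 0.078). The edgeR P-values set the difference between groups of 3 mice against the spread between these samples, estimated with help from all genes.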

Additional observations from a re-analysis of the deposited data

How the results depend on the processing

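The count of kinesins called between *Kpna6*ΔIBB/ΔIBB and WT was 17 under the alternatives on counts and 8 under each limma setting on TPM, and ranged from 13 to 16 when 1 library was left out. Against *Kpna6*-/- it was 14 or 15 under the alternatives on counts, 10 and 11 under the filtered limma settings and 8 under limma without a filter, and from 13 to 18 when 1 library was left out. With scaling by library size, 2 cilium and spermatid kinesins were lower in place of 4 and 2 division kinesins higher in place of 0 against WT, and on TPM values these were 1 and 1. Against *Kpna6*-/-, 8 kinesins were higher in place of 4 with scaling by library size and 5 lower in place of 10 on TPM values. With the replicate number as a block, which did not pair the samples, the counts were 17, 0 and 14. On TPM values *Kif2a* against WT had a log2 fold change of 0.02 and *Kif5c* 0.21 (0.03 against *Kpna6*-/-), opposite in sign to the counts. For *Kif5c* the weight of its short transcript in TPM moves with this. For *Kif2a* the cause was not tested. Under every alternative run, 7 of 17 calls were kept against WT (*Kif15*, *Kif21a*, *Kif26b*, *Kif27*, *Kif2b*, *Kif2c* and *Kif5b*), where *Kif26b* had 16 alternatives and the others 18, since the filtered limma settings did not test it, and 6 of 14 against *Kpna6*-/- (*Kif15*, *Kif21a*, *Kif27*, *Kif2b*, *Kif2c* and *Kifc3*).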
